A study of Mus musculus with 10 samples.

Results

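Transcripts of 7 genes whose protein products are described as deacetylation substrates of SIRT3 were examined in mouse brown adipose tissue: Idh2, Acss1, Glud1, Foxo3, Ppif, Ogg1 and Otc. All probe sets that the array annotation gives to a member gene alone were taken, which gave 17 of the 34945 probe sets with 1 gene. Another probe set names Foxo3 together with a second gene and was left out. The probe sets were taken by annotation alone, while the genes were chosen with earlier results of these data known. The samples were 5 mice labelled SIRT3 KO and 5 WT littermates, 1 Affymetrix array per mouse. Per the labels, all mice were untreated, about 1 year old and on a 129 background, and the tissue was brown fat. The sources used here give no detail of how or where Sirt3 was deleted. The p-values measure the spread between arrays, taken here as 1 mouse each, and their number limits the precision.

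SIRT3 is an NAD-dependent deacetylase of mitochondria. It acts on proteins, removing acetyl groups from lysines, and thereby raises or lowers the activity of its substrates. The arrays read RNA, so they show how much transcript of each substrate was present and carry no measure of acetylation. The 7 members fall into enzymes of mitochondrial metabolism (Idh2, Acss1, Glud1 and Otc), a regulator of the mitochondrial permeability pore (Ppif), a DNA repair enzyme (Ogg1) and a transcription factor (Foxo3). Brown fat is rich in mitochondria and burns fuel for heat, and Otc is known as a gene of liver and intestine.

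The bases before the transcription starts of 4 members are shown, because Acss1 and Glud1 had the most similar profiles over the arrays among the 7 genes, Ogg1 was the member with a match to the HIF core, and Otc was read at very low signal. They are the 250 bases before each start in RefSeq's GRCm38.p6 annotation, 5′ to 3′ on the strand of the gene. Acss1 lies on the minus strand (chr2:150668241-150668490), Glud1 (chr14:34310477-34310726), Ogg1 (chr6:113326726-113326975) and Otc (chrX:10252055-10252304) on the plus strand. Capitals mark GC boxes (GGGCGG on either strand) and the core bound by hypoxia-induced factors (ACGTG on either strand), which was looked up because the title of the study names HIF1a.

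Acss1: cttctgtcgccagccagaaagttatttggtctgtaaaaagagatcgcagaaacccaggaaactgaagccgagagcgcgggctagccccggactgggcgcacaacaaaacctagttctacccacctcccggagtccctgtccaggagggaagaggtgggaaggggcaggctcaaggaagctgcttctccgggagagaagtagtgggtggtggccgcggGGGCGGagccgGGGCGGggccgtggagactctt

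Glud1: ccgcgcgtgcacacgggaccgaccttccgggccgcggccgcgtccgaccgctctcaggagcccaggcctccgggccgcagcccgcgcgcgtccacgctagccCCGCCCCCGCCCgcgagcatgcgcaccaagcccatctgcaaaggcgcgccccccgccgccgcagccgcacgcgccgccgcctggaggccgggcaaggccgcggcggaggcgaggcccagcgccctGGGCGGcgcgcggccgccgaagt

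Ogg1: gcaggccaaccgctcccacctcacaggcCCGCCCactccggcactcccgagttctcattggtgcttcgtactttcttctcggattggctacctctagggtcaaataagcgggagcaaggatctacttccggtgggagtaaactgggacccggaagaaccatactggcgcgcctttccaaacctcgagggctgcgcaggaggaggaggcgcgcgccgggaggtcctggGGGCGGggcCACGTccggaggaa

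Otc: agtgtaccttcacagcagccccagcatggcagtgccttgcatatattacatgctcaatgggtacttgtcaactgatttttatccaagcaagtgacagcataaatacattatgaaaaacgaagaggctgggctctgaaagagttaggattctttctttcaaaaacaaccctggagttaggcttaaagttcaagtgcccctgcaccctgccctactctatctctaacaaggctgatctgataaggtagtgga

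All 7 members had a promoter in the RefSeq table. The share of G and C was 61.6% for Acss1, 82% for Glud1, 63.6% for Ogg1, 67.2% for Idh2, 76.4% for Foxo3 and 62.8% for Ppif, against a median of 52.4% over 32851 promoters. Otc, at 43.6%, was the member below that median. GC boxes were matched in every member except Otc, from 1 in Ppif to 5 in Foxo3, and in 32.7% of all promoters. In Glud1, 2 of its 3 matches adjoin and appear as 1 run of capitals. ACGTG was matched once in Ogg1 and in no other member, against 16.6% of all promoters. Neither the FoxO core GTAAACA (3.17% of promoters, either strand) nor a TATAAA box (12.4%, either strand) was matched in any of the 7. A match is a run of letters and does not show that a factor binds.

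All values below are log2 signals as deposited, differences are KO minus WT in log2 units with the standard error of the limma fit, and a difference was called where its p, adjusted over all 34945 probe sets, was under 0.05. Arrays differed in muscle RNA: the mean log2 signal of 18 skeletal muscle markers ranged from 5.54 to 11.01 in KO arrays and from 7.65 to 11.72 in WT arrays, and all 18 were lower on average in KO. An exact permutation test of these means gave p = 0.26 (n = 5 against 5). In bulk tissue, fewer cells of a type and less RNA per cell cannot be told apart. The 9 brown adipocyte markers averaged 11.47 to 11.71 in KO arrays and 11.49 to 12.05 in WT arrays, so the labelled tissue was seen in every array, and Ucp1, the uncoupling protein of brown fat, was 14.10 ± 0.09 in KO and 14.18 ± 0.09 in WT (SD, n = 5 each). Macrophage markers averaged 7.37 to 7.82 in KO and 7.42 to 7.71 in WT, and endothelial markers 8.52 to 8.66 in KO and 8.12 to 8.71 in WT. A sign of RNA quality also moved with genotype: the 3' minus 5' signal of the Pcx control was 2.77 to 2.95 in KO arrays and 2.96 to 3.44 in WT arrays, with no overlap (exact permutation p = 0.0079, the smallest that 5 against 5 can give). This measure was read because earlier results of these data had shown it to differ between the groups. Its p is therefore no independent test. Over all probe sets, 0.693% did not overlap between the groups. The part of RNA quality in the differences below was not tested. Sirt3 itself averaged 10.32 ± 0.07 in arrays labelled KO and 10.13 ± 0.10 in WT (SD, n = 5 each; difference 0.19 ± 0.062), so its probe set was not lower in arrays labelled KO. The labels do not say which part of the gene was deleted, so this probe set does not check the labels, and KO below means arrays labelled KO.

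No transcript of the 7 substrates passed the test between KO and WT. By limma, 0 of the 17 probe sets had an adjusted p under 0.05, against a background of 0% of all probe sets, and the smallest adjusted p among them was 0.885. At an unadjusted p under 0.05, 1 of the 17 was counted, lower in KO, where 5.41% of all probe sets were (2.56% lower and 2.85% higher in KO). That count was 4 with a muscle marker covariate, 3 without KO 3, and 0 without WT 4, WT 5 or any 1 of the other KO arrays. Those 4 were sets of Acss1 and Glud1. Over all 34945 probe sets the count also moved, from 1892 as reported to 2990 with the muscle covariate. It was 1831 without KO 3, and 1477 to 2132 without WT 4, WT 5 or any 1 of the other KO arrays. With the brightest probe set of each of 18194 genes, 0 genes were called and 4.68% had an unadjusted p under 0.05. On average 7 of the 17 were higher and 10 lower in KO (58.8% lower), with a median of -0.011. Over all probe sets 52.7% were lower and the median was -0.0059. KO and WT arrays overlapped in all 17, where 0.693% of all probe sets did not overlap. Acss1, Glud1 and Foxo3 were the genes whose probe sets all averaged lower in KO. For Foxo3 this includes 1450236_at at only -0.0056 ± 0.085, which changed sign in 5 of its alternatives, and 1434832_at, which did so in 2.

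**Figure D1:**
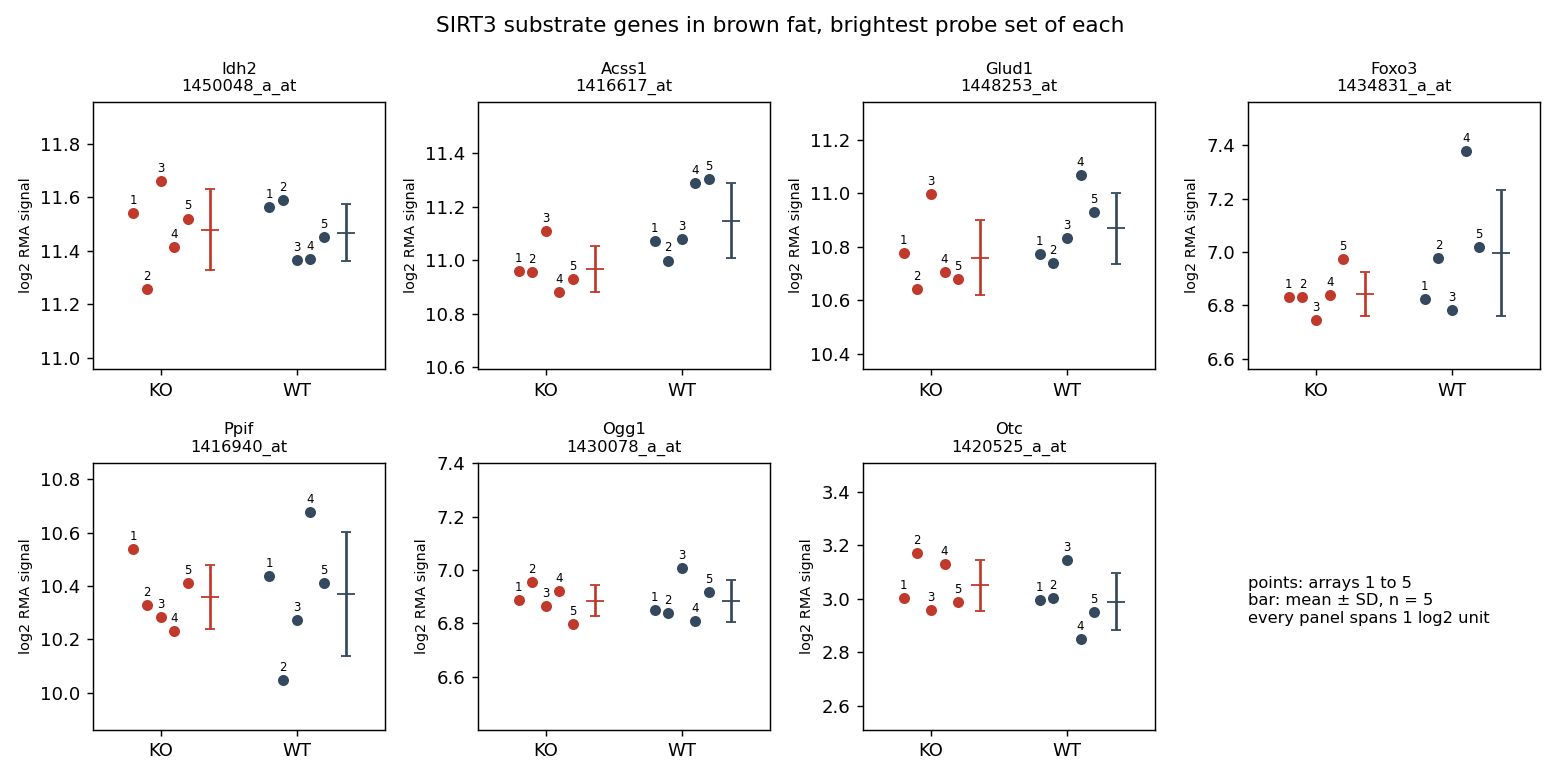
Log2 signal of the brightest probe set of each of the 7 genes, with KO arrays on the left and WT arrays on the right of each panel, points numbered by array and bars showing mean ± SD (n = 5). Every panel spans 1 log2 unit; the groups overlap in all 7, and WT 4 and WT 5 are the highest points for Acss1.

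Acss1, which makes acetyl-CoA from acetate in mitochondria, had the lowest unadjusted p of the 17. Its bright probe set (1416617_at) read 10.96, 10.96, 11.11, 10.88 and 10.93 in KO arrays 1 to 5, against 11.07, 11.00, 11.08, 11.29 and 11.31 in WT arrays 1 to 5. All 5 KO arrays lay below the WT mean, and the groups overlapped only through KO 3, which lay above WT 1, WT 2 and WT 3. The difference was -0.18 ± 0.074, or 0.882 times the WT level with a 95% confidence interval of 0.788 to 0.987, and its unadjusted p of 0.032 became an adjusted p of 0.885 in limma. An exact permutation test of the same values gave p = 0.032 (n = 5 against 5, two-sided, unadjusted).

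The other probe sets of Acss1 ran the same way at much lower signal. The first (1437583_x_at) averaged 5.31 ± 0.09 in KO and 5.43 ± 0.10 in WT (SD, n = 5 each), a difference of -0.12 ± 0.066. The second (1437582_at) averaged 3.62 ± 0.15 in KO and 3.75 ± 0.20 in WT (SD, n = 5 each), a difference of -0.13 ± 0.10. Both lay below the array medians of 5.58 to 5.61. Over the 10 arrays they had Pearson correlations of 0.80 and 0.82 with the bright set, and WT 5 was the highest array in all 3. The probe sets read the same 10 RNAs, so their agreement describes the transcript in these arrays and adds no mice.

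The Acss1 difference was smaller without WT 4 and WT 5. These arrays read highest of all for Acss1, so leaving them out had to shrink the difference. Without both it was -0.082 ± 0.068 (unadjusted p 0.25, limma adjusted p 0.979), and without either one it was -0.15 or -0.14. The same 2 arrays had the highest brown adipocyte marker means, 11.97 in WT 4 and 12.05 in WT 5, above the 11.83 of WT 3 and the 11.71 of the highest KO array. Single markers did not all follow these means. Dio2 read 11.20 in WT 4 and 11.32 in WT 5, against 8.65 to 9.95 in the other arrays. The higher mean of WT 4 than of WT 3 rests on Dio2, which read 9.74 in WT 3. Ucp1 and Adipoq were also highest in these arrays, by less. Pparg, at 11.67 in WT 4, was lowest there among WT arrays, and Cidea, at 14.15 in WT 5, was lowest there among all arrays. With muscle marker level as a covariate the difference was -0.24 ± 0.066 (unadjusted p 0.0040, limma adjusted p 0.494). The part of cell makeup in the Acss1 values was not tested further.

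Glud1, glutamate dehydrogenase, which links glutamate to the TCA cycle, averaged slightly lower in KO in both probe sets. The brighter one (1448253_at) read 10.78, 10.64, 11.00, 10.70 and 10.68 in KO arrays 1 to 5, against 10.77, 10.74, 10.83, 11.07 and 10.93 in WT arrays 1 to 5. KO 3 was the second highest of all 10 arrays, while the other KO arrays lay below the WT mean. The difference was -0.11 ± 0.084 (adjusted p 0.892), with a 95% confidence interval on the ratio of 0.816 to 1.05. The other probe set (1416209_at) differed by -0.12 ± 0.085, and the pair had a Pearson correlation of 0.94 over the arrays. Without WT 4 the brighter set differed by -0.060, without WT 4 and WT 5 by -0.023, and without KO 3 by -0.17. With the muscle covariate the differences were -0.18 ± 0.070 and -0.19 ± 0.073, with adjusted p of 0.549 and 0.546 in limma.

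Acss1 and Glud1 followed each other over the arrays. Their brightest probe sets had a Pearson correlation of 0.86 and a Spearman correlation of 0.88 over 10 arrays, 0.86 after each group's mean was subtracted, and 0.79 without WT 4 and WT 5, the arrays farthest from the Acss1 median. The 10 arrays share their normalization and their tissue makeup, and this is a description of them without a test. Among 11669 genes brighter than the median signal, Acss1 ranked 42 by likeness to Glud1. Glud1 ranked 124 by likeness to Acss1. No other pair among the 6 members above the median signal had a Pearson correlation above 0.58: for Acss1 and Foxo3 it was 0.58, and it turned to -0.52 without WT 4 and WT 5. Ogg1 reached 0.77 with Otc, which was read far below the median signal, and 0.79 without WT 3 and KO 5. A correlation near that of Acss1 with Glud1 was thus also seen with a very dim probe set.

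**Figure D2:**
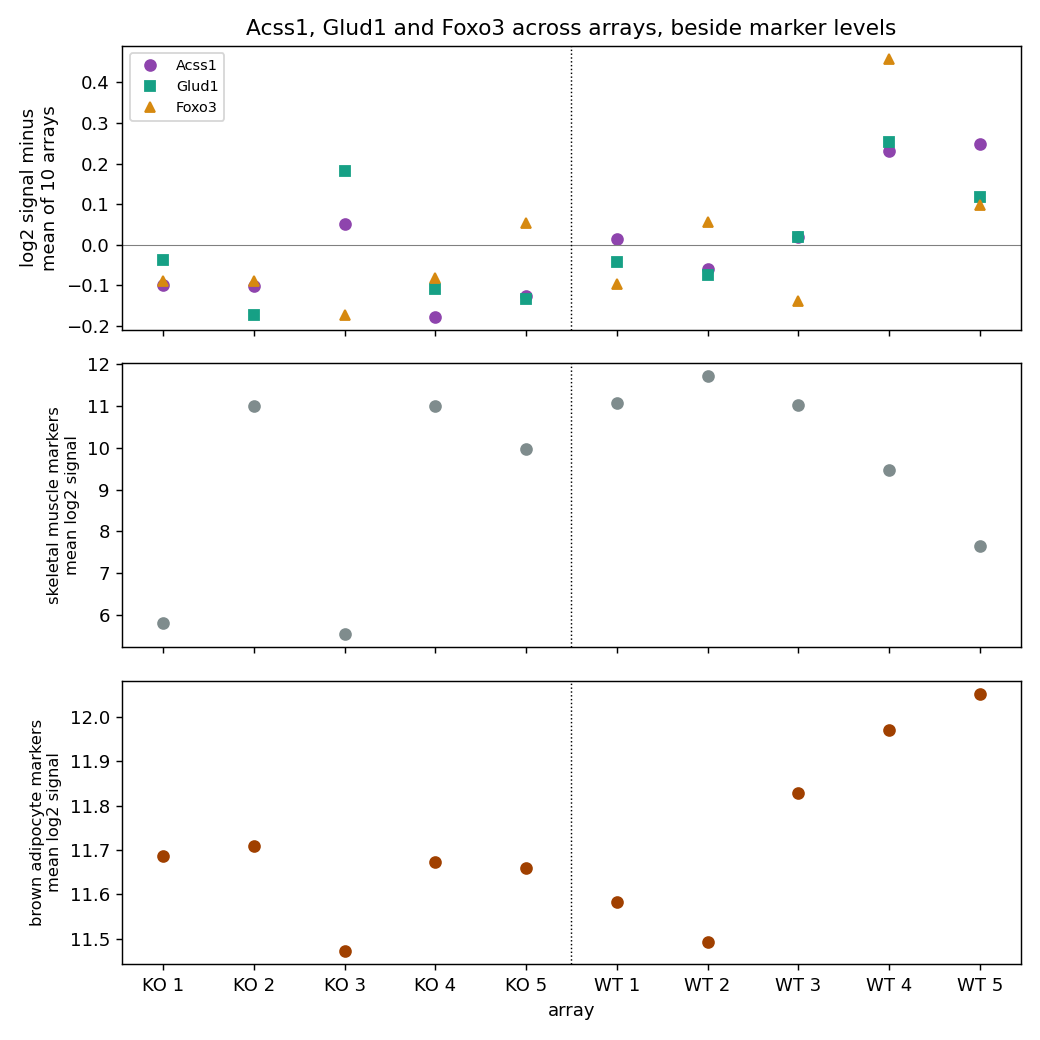
The upper panel plots the log2 signal of Acss1, Glud1 and Foxo3 in each array minus the mean of all 10, and the lower panels plot the mean log2 signal of skeletal muscle and brown adipocyte markers, with KO arrays left of the dotted line and WT arrays right of it. WT 4 and WT 5 are high for all 3 genes and for the mean of the brown adipocyte markers, in WT 4 largely through Dio2. KO 3, at 5.54 the lowest in muscle markers, is raised for Glud1 and Acss1 but not for Foxo3.

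The genes with profiles most like those of the members differed between members. For Glud1 they were Prodh (Pearson correlation 0.96 over 10 arrays), which encodes proline dehydrogenase, Pecr (0.95), a peroxisomal enoyl-CoA reductase, and Maob (0.94), monoamine oxidase B. For Acss1 they were Dleu2 (0.97), a noncoding RNA, Rps27 (0.97), a ribosomal protein gene, and Atg2a (0.96), an autophagy gene. For Foxo3 they were Atxn1 (0.94), Hbp1 (0.94) and Klhl24 (0.94), for Ppif Mettl16 (0.91), Ppp2r1b (0.91) and Stamos (0.89), for Idh2 Pdzd11 (0.97), Bmyc (0.93) and Ifi203 (0.93), and for Ogg1 Nt5c3b (0.94), Spdef (0.93) and 1600014C23Rik (0.93). These are by construction the highest values among 11669 genes. No 2 members shared any of these genes.

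Idh2, the mitochondrial NADP-dependent isocitrate dehydrogenase that supplies NADPH, averaged alike in the groups at high signal. Its bright probe set (1450048_a_at) read 11.54, 11.25, 11.66, 11.42 and 11.52 in KO arrays 1 to 5, against 11.56, 11.59, 11.37, 11.37 and 11.45 in WT arrays 1 to 5. The highest and the lowest array were both KO. The difference was 0.011 ± 0.081 (adjusted p 0.988), and its 95% confidence interval allows a KO level from 0.891 to 1.14 times that of WT. A dimmer probe set (1453601_at) averaged 5.52 ± 0.13 in KO and 5.40 ± 0.29 in WT (SD, n = 5 each), a difference of 0.12 ± 0.12 that was 0.013 without WT 5, its lowest array. The 2 sets had a Pearson correlation of 0.41 over the arrays, so they did not follow each other as those of Acss1 or Glud1 did.

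Ppif encodes cyclophilin D, which promotes opening of the mitochondrial permeability pore. Its bright probe set (1416940_at) read 10.54, 10.33, 10.29, 10.23 and 10.41 in KO arrays 1 to 5, against 10.44, 10.05, 10.27, 10.68 and 10.41 in WT arrays 1 to 5. All KO arrays lay within the WT range. The difference was -0.011 ± 0.11 (adjusted p 0.991), the 95% confidence interval of the ratio was 0.845 to 1.17, and without WT 4 and WT 5 the difference was 0.11. The dimmer set (1438955_x_at) differed by 0.0058 ± 0.088 and correlated with the bright one at 0.87 over the arrays.

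Otc, ornithine transcarbamylase, an enzyme of the urea cycle, was read far below the array medians by all 3 of its probe sets. The brightest (1420525_a_at) averaged 3.05 ± 0.09 in KO and 2.99 ± 0.11 in WT, the second (1425540_at) 2.92 ± 0.12 in KO and 2.97 ± 0.12 in WT, and the third (1436615_a_at) 2.60 ± 0.06 in KO and 2.58 ± 0.14 in WT (SD, n = 5 each). They differed by 0.06 ± 0.068, -0.05 ± 0.076 and 0.02 ± 0.071, and over the arrays the first had Pearson correlations of -0.62 with the second and 0.67 with the third, while the second had -0.0072 with the third. RMA gives no detection call, so whether Otc lay above background was not tested, and its differences carry little information on the transcript. The hepatocyte markers averaged 5.19 to 5.34 in KO arrays and 5.24 to 5.32 in WT arrays, with albumin (Alb) at 3.93 to 4.59 in KO and 3.93 to 4.44 in WT. Other markers of that list lay above the array medians. Apoc3 averaged 7.40 in KO and 7.42 in WT, Apoa1 6.24 and 6.25, and Ttr 5.74 and 5.71.

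Ogg1, the glycosylase that removes oxidized guanine from DNA, varied little over the arrays in its brighter probe set. That set (1430078_a_at) read 6.89, 6.96, 6.87, 6.92 and 6.80 in KO arrays 1 to 5, against 6.85, 6.84, 7.01, 6.81 and 6.92 in WT arrays 1 to 5. The whole range over the 10 arrays was 0.21 log2 units, against 0.32 to 0.63 for the brightest sets of the other members. The difference was 0.0015 ± 0.056 (adjusted p 0.998), with a 95% confidence interval of the ratio from 0.919 to 1.09. A dimmer set (1448815_at) differed by 0.0095 ± 0.10, had a range of 0.50 over the arrays, wider than that of any Otc set, and had a Pearson correlation of 0.11 with the first.

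Foxo3, a transcription factor of stress resistance and fasting, averaged lower in KO, and WT 4 was the highest array in its 2 brighter probe sets. Its brightest probe set (1434831_a_at) read 6.83, 6.83, 6.75, 6.84 and 6.97 in KO arrays 1 to 5, against 6.82, 6.98, 6.78, 7.38 and 7.02 in WT arrays 1 to 5. WT 4 stood above all other arrays. The difference was -0.15 ± 0.10 (adjusted p 0.885), and it was -0.056 without WT 4 and -0.017 without WT 4 and WT 5. A second set (1434832_at), highest in WT 4 at 6.92, differed by -0.06 ± 0.13 and by 0.12 without WT 4 and WT 5. The third (1450236_at), below the array medians, differed by -0.0056 ± 0.085. The first 2 sets had a Pearson correlation of 0.89 over the arrays, and the third had 0.14 and 0.24 with them.

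**Figure D3:**
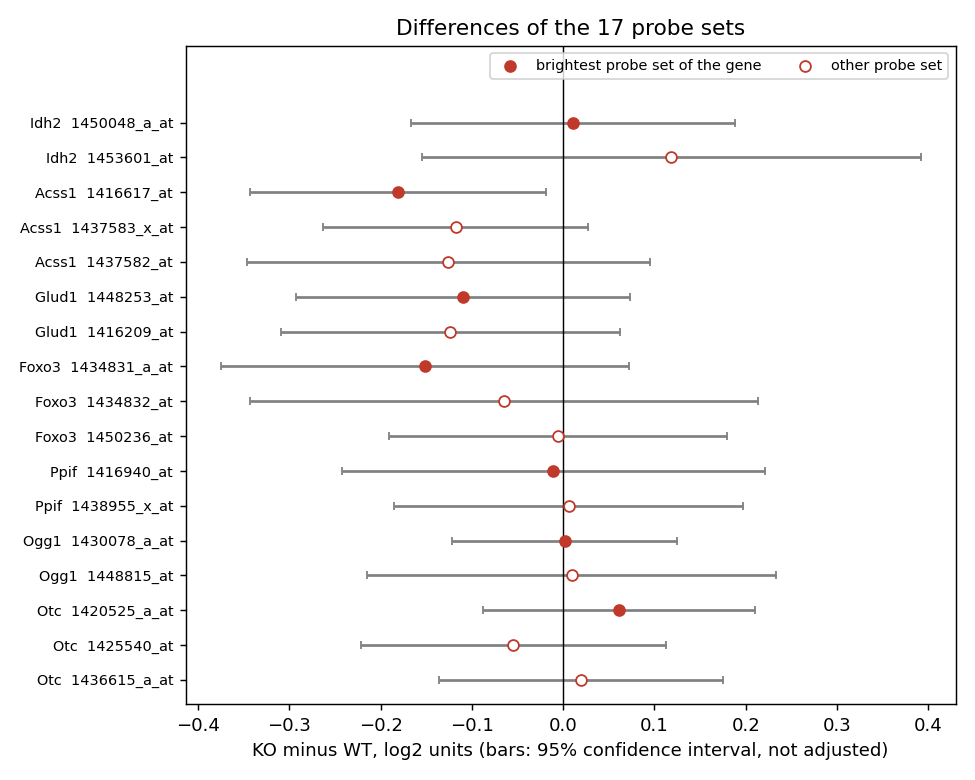
KO minus WT differences in log2 units of all 17 probe sets, filled points for the brightest set of each gene and open points for the others, with unadjusted 95% confidence intervals as bars. The interval of Acss1 1416617_at is the one that does not include 0, and no probe set passed after adjustment.

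**Figure D4:**
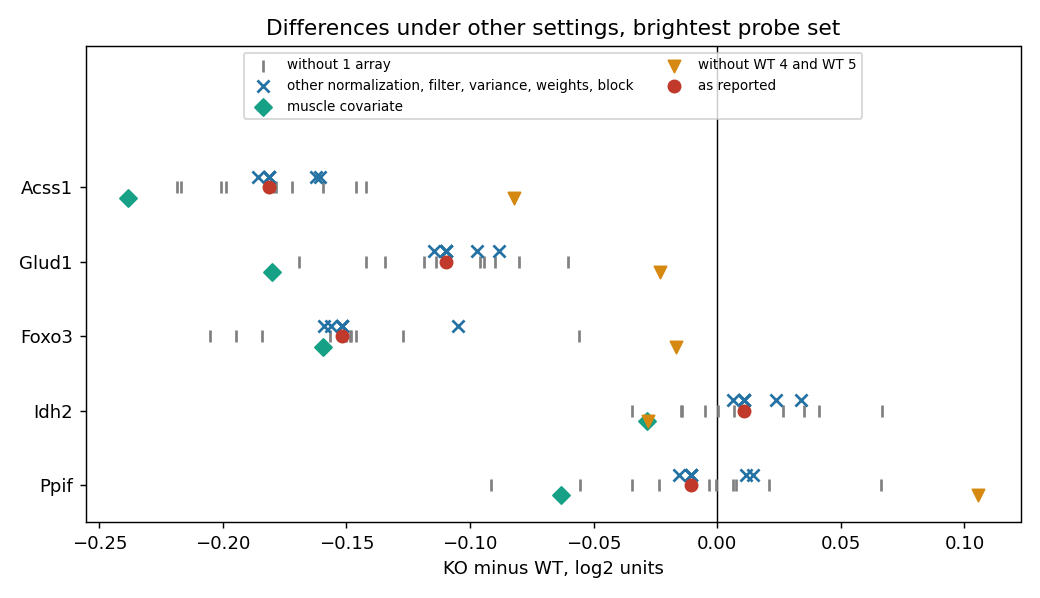
KO minus WT differences of the brightest probe sets of Acss1, Glud1, Foxo3, Idh2 and Ppif under the reported and the 19 other settings, in log2 units. Acss1, Glud1 and Foxo3 stay below 0 in all of them and are nearest to 0 without WT 4 and WT 5, while Idh2 and Ppif lie on both sides of 0. WT 4 and WT 5 were the highest WT arrays for Acss1, Glud1 and Foxo3, so the direction of that shift was fixed by their values.

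Genes that work beside the members were counted from 12 lists. Of their 98 distinct measured genes, 0 were called, 43 were higher and 55 lower in KO, and their median was -0.021. Over all genes, read the same way, 56.1% were lower and the median was -0.013. At an unadjusted p under 0.05, 2 were higher (Gadd45a and Sirt3 itself) and 2 lower, or 4.08%. In the same fit 836 of all 18194 genes were under that level. A separate fit of the brightest probe set of every gene gave 4.68%. Other reported SIRT3 substrates, among them Sod2 and Acadl, had 21 measured genes, of which 9 were higher and 12 lower with a median of -0.018. Their lowest unadjusted p belonged to Xrcc6, which encodes the DNA end-binding protein Ku70, at -0.16 ± 0.099 (-0.044 without WT 4 and WT 5). Stk11, the kinase LKB1, followed at -0.07 ± 0.071.

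Around Acss1, the 4 measured genes of acetyl-CoA supply averaged higher in KO by their brightest probe sets, with a median of 0.18 that was 0.0070 without WT 4 and WT 5. Acly, ATP citrate lyase, was at 0.14 ± 0.12 and turned to -0.059 without them, and Acot12, an acetyl-CoA thioesterase read below the array medians, was at 0.03 ± 0.12. Other probe sets of Acly and Acot12 went down to -0.061 and -0.11. Acss2, the acetyl-CoA synthetase of cytosol and nucleus, read 12.57, 12.96, 12.22, 12.60 and 12.62 in KO arrays 1 to 5, against 12.67, 12.55, 12.55, 11.47 and 11.70 in WT arrays 1 to 5. WT 4 and WT 5, the highest arrays for Acss1, were the lowest for Acss2, so leaving them out had to shrink its difference. The difference of Acss2 was 0.41 ± 0.23 (adjusted p 0.885), and 0.0042 without those arrays. Slc25a1, the mitochondrial citrate carrier, differed by 0.23 ± 0.17, and by 0.0097 without them.

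Around Foxo3, both measured FoxO relatives averaged lower in KO. Foxo1 read 9.24, 9.29, 9.57, 9.42 and 10.21 in KO arrays 1 to 5, against 9.10, 9.27, 9.30, 11.12 and 10.62 in WT arrays 1 to 5. WT 4 and WT 5 were again the highest, followed by KO 5, and the difference of -0.34 ± 0.38 was 0.32 without them. Foxo4 differed by -0.03 ± 0.085, and by 0.064 in a dimmer probe set. Of 15 FoxO target genes, 4 were higher and 11 lower with a median of -0.047. Gadd45a, a stress-induced growth arrest gene, averaged 7.03 ± 0.49 in KO and 6.24 ± 0.49 in WT (SD, n = 5 each), a difference of 0.79 ± 0.26 (unadjusted p 0.011, limma adjusted p 0.885). It was lowest in WT 4 and WT 5, at 5.79 and 5.68, and differed by 0.45 without them. Sesn1, a sestrin, differed by -0.31 ± 0.12 (unadjusted p 0.023, limma adjusted p 0.885), and by -0.25 without them.

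Around Idh2 and Glud1 no gene was called. The isocitrate dehydrogenases Idh1, Idh3a, Idh3b and Idh3g had a median of -0.012 (0.028 without WT 4 and WT 5), with Idh1, the cytosolic NADP-dependent form, at -0.06 ± 0.076 and Idh3b, a subunit of the NAD-dependent enzyme, at 0.03 ± 0.044. Mitochondrial NADPH supply and use had 3 higher and 4 lower of 7 measured genes and a median of -0.020, with glutathione reductase (Gsr) at -0.11 ± 0.066 and thioredoxin reductase 2 (Txnrd2) at 0.10 ± 0.067 (0.024 without WT 4 and WT 5). The widest difference of that list was in Nnt, the mitochondrial transhydrogenase, which was named after its values were seen. Nnt read 6.05, 7.39, 5.99, 6.99 and 6.41 in KO arrays 1 to 5, against 6.86, 7.89, 7.44, 6.44 and 6.18 in WT arrays 1 to 5. The groups overlapped, and KO 1 and KO 3, the lowest arrays for Nnt, were also the lowest in muscle markers. Its difference was -0.39 ± 0.35 (adjusted p 0.902), -0.83 without WT 4 and WT 5 and -0.02 with the muscle covariate, and other probe sets of the gene ranged up to 0.15. Glutamate and glutamine enzymes had 2 higher and 5 lower of 7 and a median of -0.042. Their lowest unadjusted p belonged to Aldh18a1, an enzyme of proline synthesis read below the array medians, at -0.17 ± 0.078, and glutamine synthetase (Glul) was at -0.14 ± 0.12, and at 0.010 without WT 4 and WT 5.

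Around Ppif, 5 other measured cyclophilins had a median of -0.07, which was 0.027 with the mean of all probe sets of a gene and -0.022 without WT 4 and WT 5. Ppie was at 0.11 ± 0.052 and Ppig at -0.11 ± 0.082 (-0.022 without WT 4 and WT 5). The 8 candidate genes of the permeability pore had a median of 0.0055, with the outer membrane protein Tspo at 0.06 ± 0.048 and the channel Vdac1 at -0.05 ± 0.061. Around Ogg1, base excision repair had 5 higher and 7 lower of 12 measured genes and a median of -0.016. Its lowest unadjusted p belonged to Mpg, the glycosylase for alkylated purines, at -0.16 ± 0.085, and Neil3, below the array medians, was at -0.13 ± 0.071. Dimmer probe sets of Xrcc6, Aldh18a1, Ppig, Vdac1, Mpg and Neil3 had differences of the opposite sign, up to 0.026, 0.020, 0.11, 0.030, 0.016 and 0.011.

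Around Otc, the urea cycle list had 3 higher and 5 lower of 8 genes and a median of -0.033. Slc25a15, the mitochondrial ornithine carrier, read 8.20, 8.17, 8.07, 8.05 and 7.92 in KO arrays 1 to 5, against 8.24, 8.18, 8.20, 8.44 and 8.37 in WT arrays 1 to 5. Its difference was -0.20 ± 0.073 (unadjusted p 0.018, limma adjusted p 0.885), and -0.12 without WT 4 and WT 5. Cps1, the first enzyme of the cycle, averaged 4.04 ± 0.06 in KO and 4.03 ± 0.12 in WT (SD, n = 5 each), and Arg1, the liver arginase, 3.63 ± 0.09 in KO and 3.75 ± 0.12 in WT (SD, n = 5 each), all below the array medians. Among the 7 sirtuins 5 were higher and 2 lower with a median of 0.0080; Sirt3 was the member with an unadjusted p under 0.05, and Sirt2 differed by -0.09 ± 0.063.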

How the data were processed

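RNA of brown adipose tissue from 5 KO and 5 WT mice was read on Affymetrix arrays. The deposited values are log2 signals made with RMA, per the submitters' processing notes; no software or version is named. RMA equalizes array distributions, which hides any shift common to most transcripts, and it gives no detection call. The table held 45101 probe sets: 64 controls, 34945 with 1 gene in the platform annotation, 932 with several and 9160 with none. Symbols were updated by gene ID (34741 matched) through RefSeq's GRCm38.p6 table.

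Differences were fitted with lmFit and eBayes (limma 3.58.1, R 4.3.3) over all 34945 probe sets, two-sided, without covariates, with Benjamini-Hochberg adjustment. Single values were compared by exact permutation over 252 splits of the arrays. Each gene of a list was read by its brightest probe set. Named genes are the members, Sirt3, up to 2 genes per list with the lowest unadjusted p and, for each member above the median signal, the 3 genes with the most similar profile; other genes were named after their values were seen. The members, the lists, the muscle level and the Pcx measure were chosen with earlier results of these data known. The fit was tested on simulated data with independent normal noise for each probe set. Changes of 0.5 log2 units were recovered in 71% and changes of 1 in 97%, with 7 false calls among 175. Smaller changes, such as those of the members, and variation shared between probe sets were not simulated. Alternatives were the brightest set per gene, normalization, a filter on dim sets, variance model, array weights, replicate block, muscle covariate and left-out arrays. Leaving out the highest or lowest WT arrays of a gene moves its difference by construction, so such shifts are descriptions. Figures were drawn with matplotlib 3.10.9.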

Additional observations from a re-analysis of the deposited data

Results flagged for a closer look

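Among 40 groups of 5 arrays examined (17 probe sets, Sirt3, muscle markers and the Pcx measure, in KO and in WT), 2 held an array far from the others by Dixon's criterion, and chance gives about 1 in 20. In the dim probe set of Idh2 (1453601_at), KO 4 read 5.29, while the nearest other KO array read 5.51. In the dim probe set of Foxo3 (1450236_at), WT 5 read 4.99, while the nearest other WT array read 4.66.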

How the results depend on the processing

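Under all 19 alternatives, 10 of which left out 1 array, no member probe set had an adjusted p under 0.05. Differences kept their sign in each alternative that was run for them (17 to 19, since dim or second sets are absent where only bright sets are kept) for all 3 sets of Acss1, both of Glud1, the brightest of Foxo3, Sirt3, and 2 of Otc. The bright Acss1 set ranged from -0.24 (muscle covariate) to -0.082 (without WT 4 and WT 5), and from -0.22 to -0.14 without 1 array. Signs turned for the other sets, Idh2 1453601_at (0.12 as reported) and Foxo3 1434832_at (-0.06) among them; the cause was not tested. After a second quantile normalization Ppif 1416940_at was 0.011 and Ogg1 1430078_a_at -0.0045, and with centred arrays that Ogg1 set was -0.0030. With array weights Foxo3 1450236_at was 0.016, Ppif 1416940_at 0.015, Ogg1 1430078_a_at -0.019, Ogg1 1448815_at -0.012 and Otc 1436615_a_at -0.013. With the muscle covariate Idh2 1450048_a_at was -0.028 and Ppif 1438955_x_at -0.013. Without WT 4 and WT 5, Idh2 1450048_a_at was -0.028, Idh2 1453601_at -0.051, Foxo3 1434832_at 0.12, Foxo3 1450236_at 0.071, Ppif 1416940_at 0.11, Ogg1 1430078_a_at -0.013, Ogg1 1448815_at -0.14 and Otc 1436615_a_at -0.066.

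Without 1 array in turn, differences ranged from -0.035 to 0.067 for Idh2 1450048_a_at, -0.15 to 0.038 for Foxo3 1434832_at, -0.032 to 0.068 for Foxo3 1450236_at, -0.091 to 0.066 for Ppif 1416940_at, -0.067 to 0.058 for Ppif 1438955_x_at, -0.017 to 0.032 for Ogg1 1430078_a_at, -0.056 to 0.069 for Ogg1 1448815_at and -0.028 to 0.057 for Otc 1436615_a_at. Over all probe sets, 0 were called in each alternative except 1 without WT 2, Ptprb (0.65, adjusted p 0.018 in limma), an endothelial phosphatase gene named after its value was seen. Counts at an unadjusted p under 0.05 were 1892 as reported, 2990 with the muscle covariate and 1922 with the second quantile normalization. They were 1592 without WT 4 and WT 5, and 1477 to 2925 without 1 array, the highest without WT 2. Member counts at that level were 1 as reported, 4 with the muscle covariate, 0 with the second quantile normalization, the replicate block or without WT 4 and WT 5, and 0 to 3 without 1 array. The median turned to 0.027 for cyclophilins where each gene's probe sets were averaged, and to 0.028 for isocitrate dehydrogenases without WT 4 and WT 5 (0.0058 or 0.0059 without 1 of them). Replicate numbers gave no pairing: deviations of same-numbered arrays correlated between -0.33 and 0.17, and 0 of 5 KO arrays were closest to their own number. With the replicate number as a block 0 probe sets were called, 1642 had an unadjusted p under 0.05, and Acss1 1416617_at was at -0.18 ± 0.084. Of the lists, 0 members were called in any alternative tried. Low signals have no stated floor, so differences of dim sets are the least reliable.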

Other observations

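The probe set that the annotation gives to Foxo3 and Gm38485 together (1444226_at) averaged 4.76 ± 0.04 in KO and 4.83 ± 0.11 in WT (SD, n = 5 each), below the array medians. Its difference was -0.07, with an exact permutation p of 0.32 (n = 5 against 5, two-sided).

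Across the muscle covariate fit, 332 of the 34945 probe sets (0.95%) had a slope on muscle marker level with a limma adjusted p under 0.05. None of the 17 member probe sets was among them; the lowest adjusted p was 0.17, for the dim Acss1 set 1437582_at, with a slope of -0.06 ± 0.017 log2 units per log2 unit of muscle signal. For the bright sets the slopes were -0.04 ± 0.015 for Acss1, -0.05 ± 0.016 for Glud1 and -0.03 ± 0.019 for Idh2.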
